A study of Mus musculus with 11 samples.

Results

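Expression of 10 genes that take up, store and export cholesterol was followed in the adrenal glands of male nude mice by RNA sequencing. The genes were Scarb1, Npc1, Npc2, Stard3, Soat1, Plin2, Abca1, Abcg1, Apoe and Apoc1, picked by name from a table of 23337 gene symbols, in which all 10 were found. The ORX group (n = 6) held mice labelled as orchectomized, that is, with the testes removed, and the intact group (n = 5) held mice with testes. Mice of both groups were of the strain Hsd:Athymic Nude-Foxn1nu, which lacks a working thymus, and all had been inoculated with VCaP, a human prostate cancer cell line, at week 0 when 5 to 6 weeks old. They were assigned to ORX or intact at week 7 and killed at week 15. No tumour measure was used here, so a difference between the groups in tumour growth and the loss of the testes cannot be told apart.

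Cells of the adrenal cortex make steroids from cholesterol. In rodents they draw it largely from high-density lipoprotein through the receptor SR-BI and keep it as cholesteryl ester in lipid droplets. Cholesterol that arrives in lysosomes leaves them through the NPC proteins, the enzyme SOAT1 esterifies it for storage, ester hydrolases set it free again, and ABC transporters hand any excess to apolipoproteins outside the cell. The steroid-producing cells share the gland with medulla, vessels, macrophages and surrounding fat, all of which also handle lipid. In a bulk library fewer cells of a type and less RNA per cell cannot be told apart.

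Library totals ranged from 12539860 to 14725251 gene counts in ORX and from 11368447 to 15029582 in intact. The 10 genes took 0.355% to 0.676% of the counts in ORX libraries and 0.550% to 1.11% in intact libraries. Markers of steroid-producing cortex (9 genes, among them Star and Cyp11a1) summed to 60299 to 91639 CPM in ORX and 32929 to 72077 CPM in intact, and 3 of the 9 were called higher in ORX. CPM here are read counts scaled to a common library size by TMM. The marker lists with the largest share of genes called were of cortical zones. X-zone markers, of the inner zone that male mice normally lose at puberty, summed to 831 to 2911 CPM in ORX and 28.7 to 40.2 CPM in intact, with 3 of 3 called higher and a median log2 fold change of 8.54. Zona glomerulosa markers, of the outer zone, summed to 939.7 to 1305 CPM in ORX and 872 to 2338 CPM in intact, with 4 of 6 called lower and a median of -1.13. The part of the zones in the levels of the 10 genes was not tested. Medulla markers (10 genes) summed to 7309 to 17961 CPM in ORX and 12920.2 to 29601 CPM in intact, fat markers (8 genes) to 2747 to 12916 CPM in ORX and 4455 to 11704 CPM in intact, and macrophage markers (11 genes) to 427 to 857 CPM in ORX and 325 to 746 CPM in intact. Liver markers (6 genes, 5 tested) had a median log2 fold change of 2.81, with none called. They summed to 287 CPM in ORX 6, 105 CPM in ORX 4, 47.6 CPM in ORX 1 and 50.4 CPM in intact 1. The other libraries had 1.92 to 25.0 CPM of liver markers. None of the markers in the 9 lists was at 0 in all libraries. ORX 6 differed from the other ORX libraries in the balance of long and short transcripts. With the tested genes in 10 bins by transcript length, its median log2 difference from them was 0.73 in the shortest bin and -0.69 in the longest. Other libraries were set against the rest of their group without ORX 6. Smaller shifts of the same kind were seen in intact 3 (0.24 and -0.21) and ORX 5 (0.24 and -0.29). In ORX 4 the shift went the other way (-0.20 and 0.21).

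None of the 10 genes passed the test between ORX and intact (edgeR's quasi-likelihood test, two-sided, Benjamini-Hochberg adjusted p under 0.05 over 14139 tested genes), against 6.21% of all tested genes that did. At an unadjusted p under 0.05 the count was 3 of 10, Scarb1, Soat1 and Plin2, and 22.9% of all tested genes were past that mark. In none of the 10 did the groups separate without overlap, against 5.28% of all tested genes. DESeq2 and limma voom with sample weights each called 2 of the 10, Scarb1 and Plin2, out of 1630 and 2056 genes in all, against 878 with edgeR. The point estimates were higher in ORX for 6 genes and lower for 4, with a median log2 fold change of 0.05, beside 0.01 over all tested genes. The 4 lower ones comprised the uptake receptor, the 2 storage genes and 1 lysosomal gene, while the exporters and the apolipoproteins were on the higher side, none past the threshold.

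**Figure D1:**
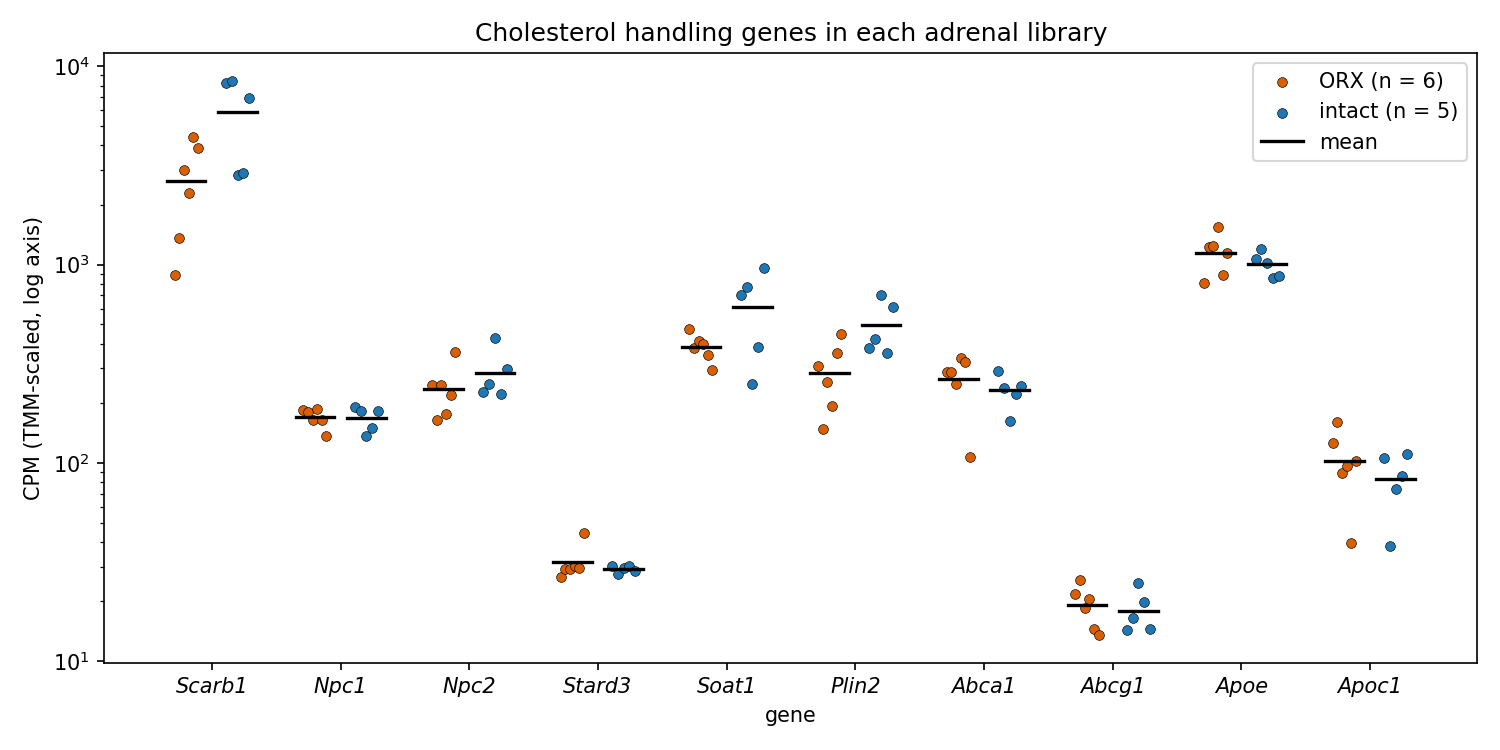
Each point is 1 library, in CPM on a log axis, for the 10 genes in ORX (orange, n = 6) and intact (blue, n = 5), with the mean as a black line. The groups overlap for every gene, and Scarb1 spans the widest range, from 889 CPM in ORX 1 to 8468 CPM in intact 2.

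Scarb1 encodes SR-BI, the receptor that takes cholesteryl ester from high-density lipoprotein into the cell (chromosome 5, 125277087 to 125341094, GRCm38, minus strand). Its lowest, median and highest values in ORX were 889, 2657 and 4404 CPM, and the intact libraries 1 to 5 had 8212, 8468, 2834, 2894 and 6933 CPM. ORX 1, 2 and 4 lay below every intact library, and ORX 3, 5 and 6 lay inside the intact range, above intact 3 and 4. The level averaged 2640.3 ± 1385 CPM in ORX and 5868 ± 2803 CPM in intact (SD, n = 6 and 5). On the log2 scale this was a difference of -1.15 ± 0.43 (SE), with a 95% interval of -2.07 to -0.23. The edgeR adjusted p was 0.127, with DESeq2 it was 0.0439 and with limma voom 0.0310. In 11 fits that each dropped 1 library, the estimate lay between -1.36 and -0.98 and the edgeR adjusted p between 0.0718 and 0.250, and no fit passed. Libraries of the same group differed widely, with a coefficient of variation of 52.5% in ORX and 47.8% in intact, while counting error alone would give 0.533% and 0.362%.

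Scarb1 dominated the summed level of the 10 genes. It held 26.3% to 64.8% of their CPM in ORX libraries and 50.0% to 73.2% in intact libraries. The sum of the other 9 genes was 2639 ± 205 CPM in ORX and 2933 ± 380 CPM in intact (SD, n = 6 and 5). The ORX range of that sum, 2388 to 2984 CPM, lay within the intact range of 2336 to 3329.9 CPM, so the lower total of the set in ORX was carried by Scarb1.

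None of the genes of lysosomal exit and transfer passed the test, and of these Npc2 had the widest interval. Npc1, the membrane protein that passes cholesterol out of the lysosome (chromosome 18), had 137, 173 and 186 CPM as lowest, median and highest values in ORX, and 192, 183, 136, 150.2 and 183 CPM in intact 1 to 5. All 6 ORX libraries lay within the intact range. The log2 fold change of 0.01 ± 0.14 had a 95% interval of -0.28 to 0.30, that is, a ratio of ORX to intact between 0.822 and 1.23 (edgeR adjusted p = 0.980). Exons of Npc1 overlap those of Rmc1 and Gm15956 on the opposite strand, and without a stated strand setting reads of these genes cannot be told apart.

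Npc2, the soluble partner that binds cholesterol inside the lysosome and passes it to NPC1 (chromosome 12, 84754562 to 84773152, minus strand), had 164, 234 and 361 CPM as lowest, median and highest in ORX, and 227, 251, 424, 223 and 297 CPM in intact 1 to 5. The single highest library of each group, ORX 6 and intact 3, stood above the rest. ORX 2, 4 and 5 lay below every intact library, and the log2 fold change was -0.27 ± 0.23 (95% interval -0.75 to 0.22, edgeR adjusted p = 0.514). It was -0.09 without intact 3 and -0.43 without ORX 6.

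Stard3, a late endosomal protein that moves sterol between membranes in contact (chromosome 11, 98358368 to 98381112, plus strand), had 26.6, 29.4 and 44.5 CPM as lowest, median and highest in ORX, and 30.3, 27.6, 29.6, 30.3 and 28.5 CPM in intact. Apart from ORX 6 at 44.5 CPM, the libraries of both groups were nearly level. In the intact group the coefficient of variation, 4.05%, was no larger than the 5.10% that counting error alone would give. The log2 fold change was 0.11 ± 0.15 (95% interval -0.21 to 0.42, edgeR adjusted p = 0.712), and -0.02 without ORX 6.

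Of the storage genes, Plin2 encodes perilipin 2, the coat protein of lipid droplets (chromosome 4, 86648386 to 86670060, minus strand), and Soat1 the enzyme that esterifies cholesterol (chromosome 1, 156424525 to 156474331, minus strand). Their promoters are shown because these 2 genes, with Scarb1, had the lowest ratios of ORX to intact in the set. The lines give the 250 bases before each RefSeq start, 5′ to 3′ on the gene's strand (build GRCm38.p6, chr4:86670060-86670309 minus for Plin2 and chr1:156474329-156474578 minus for Soat1), with matches to a searched motif in capitals.
Plin2: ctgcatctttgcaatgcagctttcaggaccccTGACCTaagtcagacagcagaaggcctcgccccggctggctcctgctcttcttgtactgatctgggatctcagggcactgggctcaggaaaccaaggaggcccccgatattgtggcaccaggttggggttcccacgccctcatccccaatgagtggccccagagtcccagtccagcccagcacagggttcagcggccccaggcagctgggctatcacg
Soat1: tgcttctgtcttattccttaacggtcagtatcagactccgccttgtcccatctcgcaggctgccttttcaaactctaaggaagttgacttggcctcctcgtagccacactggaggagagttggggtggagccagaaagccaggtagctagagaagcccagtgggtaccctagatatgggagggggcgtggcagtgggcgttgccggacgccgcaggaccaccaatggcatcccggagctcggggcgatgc
The motifs, searched on both strands, were AGGTCA, the half-site of many nuclear receptors, GGGCGG, the GC box, and CACGTG, an E-box. The Plin2 window held 1 AGGTCA, read on the opposite strand, and the Soat1 window held no match to these letters. Of 32851 RefSeq promoter windows of the same length, 14.0% held AGGTCA, 32.7% GGGCGG and 6.02% CACGTG. A match of letters is not a site.

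Plin2 had 149, 282 and 447 CPM as lowest, median and highest in ORX, and 379, 421, 706, 360.0 and 613 CPM in intact 1 to 5. ORX 1 to 4 lay below every intact library, ORX 5 just above intact 4, and ORX 6 inside the intact range. The level averaged 286 ± 110 CPM in ORX and 496 ± 154 CPM in intact (SD, n = 6 and 5). The log2 fold change was -0.80 ± 0.28 with a 95% interval of -1.39 to -0.20, an edgeR adjusted p of 0.107, 0.0478 with DESeq2 and 0.0244 with limma voom. Without any 1 library the log2 fold change was -0.97 to -0.65 (edgeR adjusted p 0.0507 to 0.236). Plin2 is abundant in fat too, and intact 3, its highest library, had the highest summed fat markers of the intact group, 11704 CPM. ORX 3 had more, 12916 CPM, with Plin2 at 255 CPM. With the fat marker score in the model the log2 fold change of Plin2 was -0.49 (edgeR adjusted p = 0.275), and with an offset for transcript length, an alternative added after the data were seen, it was -0.82 (edgeR adjusted p = 0.0449).

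Soat1 had 294, 390 and 475 CPM as lowest, median and highest in ORX, and 702, 768, 251, 385 and 957 CPM in intact 1 to 5. All 6 ORX libraries lay inside the intact range, below intact 1, 2 and 5 and above intact 3. The level averaged 385 ± 60.5 CPM in ORX and 613 ± 289 CPM in intact (SD, n = 6 and 5). The difference on the log2 scale was -0.67 ± 0.29 (95% interval -1.28 to -0.06, edgeR adjusted p = 0.181, DESeq2 0.120 and limma voom 0.0802). The coefficient of variation was 15.7% in ORX and 47.1% in intact. A single library decided the call. Without intact 3 Soat1 was past the threshold (log2 -0.88, edgeR adjusted p = 0.0342), and without intact 5 it was at -0.45 (edgeR adjusted p = 0.434).

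Intact 3 and 4 were the 2 lowest intact libraries for Scarb1, Npc1, Soat1 and Abca1. In intact 3 the log2 deviation from the intact mean was -0.89 for Scarb1, -1.13 for Soat1, -0.48 for Abca1 and -0.30 for Npc1, but 0.62 for Npc2, 0.56 for Plin2 and 0.49 for Abcg1. In that library the receptor and the esterifying enzyme were thus low while a lysosomal carrier, the droplet coat and an exporter were high. Intact 3 was also shifted in the balance of long and short transcripts (0.24 in the shortest bin, -0.21 in the longest). The longest transcripts of the low Soat1, Abca1 and Npc1 have 8371, 10262 and 5756 bases, and that of the high Plin2 has 1888. Those of Scarb1 (low), Npc2 and Abcg1 (both high) have 3093, 3299 and 5832 bases. Intact 3 had 11704 CPM of fat markers and intact 4 had 6398 CPM, beside 4455 to 9068 CPM in the other intact libraries, so intact 4 lay inside their range. Zona glomerulosa markers summed to 973 and 872 CPM in intact 3 and 4, against 2254, 2193 and 2338 CPM in intact 1, 2 and 5. Cortex markers summed to 32929 and 47782 CPM in intact 3 and 4, against 62806 to 72077 CPM in intact 1, 2 and 5. Both lists were thus lowest within the intact group in the same libraries as Scarb1 and Soat1. So were capsule and stroma markers, at 884 and 650 CPM against 1028 to 1134 CPM. In ORX the zona glomerulosa sum ran only from 939.7 to 1305 CPM, while Scarb1 ran from 889 to 4404 CPM. ORX 3 had the lowest cortex sum of that group, 60299 CPM, with Scarb1 at 3017 CPM, above the ORX median. The part of the cortical, capsule and stroma markers in these levels was not tested, and that of the fat markers only by the fit with the fat score. In that fit Scarb1 was at -1.16 (edgeR adjusted p = 0.152) and Soat1 at -0.83 (edgeR adjusted p = 0.119). The part of transcript length was tested only by the fit with the length offset. There Scarb1 was at -1.16 (edgeR adjusted p = 0.105) and Soat1 at -0.67 (edgeR adjusted p = 0.121).

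**Figure D2:**
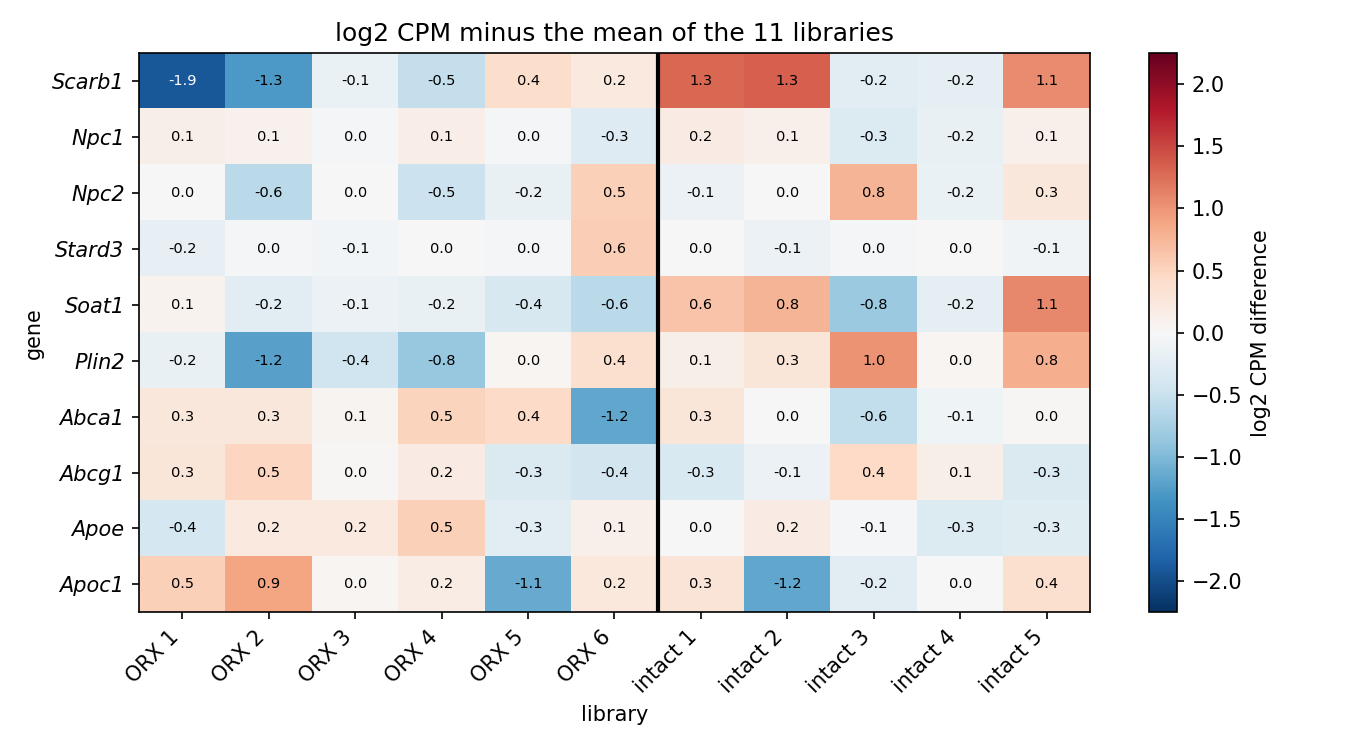
Each cell is the log2 CPM of 1 gene in 1 library minus the gene's mean over the 11 libraries, red for higher and blue for lower, with ORX left of the black line and intact right of it. Scarb1 is low in ORX 1 and 2 and high in intact 1, 2 and 5, and Abca1 is low in ORX 6 (-1.17).

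The cholesterol exporters did not differ beyond their spread. Abca1, the transporter that loads cholesterol onto lipid-poor apolipoproteins (chromosome 4, 53030787 to 53159895, minus strand), had 107, 287 and 339 CPM as lowest, median and highest in ORX, and 289.9, 240.1, 163, 223 and 245 CPM in intact 1 to 5. ORX 4 and 5 lay above every intact library and ORX 6 below every one. Abca1 had a log2 fold change of 0.19 ± 0.25 (95% interval -0.35 to 0.73, edgeR adjusted p = 0.693). Its longest transcript, 10262 bases, falls in the longest of the 10 length bins. ORX 6 differed from the mean of ORX 1 to 5 by -1.47 on the log2 scale, beside -0.69 for the median gene of that bin. Without ORX 6 the estimate for Abca1 was 0.36 (edgeR adjusted p = 0.201), without intact 3 it was 0.08, and with the offset for transcript length 0.14 (edgeR adjusted p = 0.665).

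Abcg1, the transporter that passes cholesterol to mature high-density lipoprotein (chromosome 17, 31057675 to 31117988, plus strand), had 13.6, 19.6 and 25.6 CPM as lowest, median and highest in ORX, and 14.4, 16.6, 24.7, 19.9 and 14.5 CPM in intact 1 to 5. With 180 to 394 counts per library it was the least counted of the set. The ranges nearly coincided, and the log2 fold change was 0.09 ± 0.21 (95% interval -0.36 to 0.53, edgeR adjusted p = 0.844).

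Apoe and Apoc1 are neighbours on the minus strand of chromosome 7, with 3448 bases between Apoc1 (19689481 to 19692660) and Apoe (19696109 to 19699188). Apoe encodes a lipid-binding apolipoprotein that accepts exported cholesterol and is also made by macrophages. It had 812, 1191 and 1541 CPM as lowest, median and highest in ORX, and 1072, 1206, 1025, 858 and 881 CPM in intact 1 to 5. ORX 2, 3 and 4 lay above every intact library and ORX 1 below every one, with a log2 fold change of 0.18 ± 0.19 (95% interval -0.22 to 0.58, edgeR adjusted p = 0.608). ORX 4, the highest library for Apoe and for Abca1, also had the highest summed macrophage markers, 857 CPM. Its median gene was shifted by 0.21 in the longest length bin, where Abca1 falls, and by -0.20 in the shortest, where Apoe falls. With the macrophage score in the model the log2 fold change of Apoe was 0.19, and without ORX 4 it was 0.07. That of Abca1 was 0.20 with the macrophage score and 0.10 without ORX 4.

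Apoc1, a small apolipoprotein of the same gene cluster, had 39.2, 99.6 and 160.1 CPM as lowest, median and highest in ORX, and 105, 38.1, 73.6, 86.3 and 111 CPM in intact 1 to 5. Its 2 low libraries, ORX 5 and intact 2, came from different groups, and intact 2 was the intact library with the most Apoe. For Apoc1 the log2 fold change was 0.30 ± 0.32 (95% interval -0.39 to 0.99, edgeR adjusted p = 0.619), so a ratio of ORX to intact as low as 0.765 or as high as 1.98 lay within the interval. Without ORX 2, its highest library, the estimate was 0.11.

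**Figure D3:**
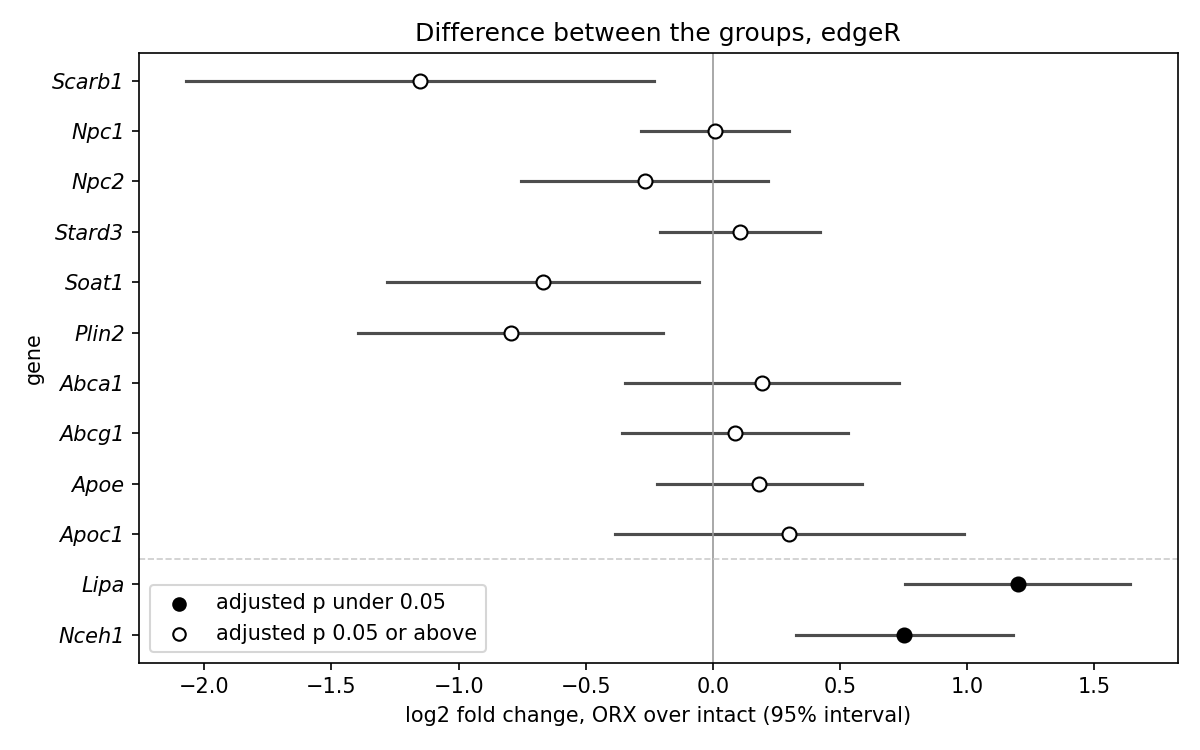
Points are log2 fold changes of ORX over intact with their 95% intervals from edgeR, filled where the adjusted p was under 0.05, for the 10 genes and, under the dashed line, Lipa and Nceh1. The intervals of Scarb1 (-2.07 to -0.23), Soat1 and Plin2 leave out 0 before adjustment, and only Lipa and Nceh1 are filled.

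Levels of different genes were set side by side as CPM per kilobase of the longest annotated transcript. Which transcripts were expressed was not determined, so a gene read mainly from a shorter transcript would rank higher than given here. In ORX the order by mean was Scarb1 (854 ± 448), Apoe (812 ± 188), Apoc1 (192 ± 75.6), Plin2 (151 ± 58.1), Npc2 (71.6 ± 21.3), Soat1 (46.0 ± 7.22), Npc1 (29.5 ± 3.19), Abca1 (25.9 ± 8.15), Stard3 (14.5 ± 2.99) and Abcg1 (3.28 ± 0.782), as SD over 6 libraries. In intact Scarb1 was at 1897 ± 906 CPM per kilobase, Apoe at 716 ± 102, Plin2 at 263 ± 81.7 and Apoc1 at 156 ± 54.9 (SD, n = 5). The remaining 6 genes followed in the same order as in ORX. Scarb1 and Apoe overlapped in their libraries in ORX, 287 to 1424 against 577 to 1094 CPM per kilobase, and did not overlap in intact, 916 to 2738 against 610 to 857 CPM per kilobase. Plin2 and Apoc1 changed places in the order, and their libraries overlapped in each group.

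Other genes of cholesterol handling, 57 on a list that excludes the 10, were read from the same fit. Of these 49 were tested, 2 rose in ORX, none fell and 47 did not pass (edgeR), beside the 6.21% called among all tested genes, with a median log2 fold change of -0.08 beside 0.01 over all genes. At an unadjusted p under 0.05 there were 12 of 49, against the 22.9% of all genes.

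The 2 that rose encode hydrolases of cholesteryl ester. Lipa, the acid lipase of the lysosome, had 218, 305 and 379 CPM as lowest, median and highest in ORX, and 163, 112, 94.0, 119 and 174 CPM in intact 1 to 5. Every ORX library lay above every intact library. Its log2 fold change was 1.20 ± 0.21 (95% interval 0.75 to 1.64, edgeR adjusted p = 0.00453), and the call held in each of the 11 fits without 1 library.

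Nceh1, a neutral cholesterol ester hydrolase, had 157, 246 and 318 CPM as lowest, median and highest in ORX, and 138, 109, 134, 142 and 174 CPM in intact 1 to 5. ORX 1, 2, 4 and 5 lay above every intact library, and ORX 3 and 6 inside the intact range. Its log2 fold change was 0.75 ± 0.20 (95% interval 0.33 to 1.18, edgeR adjusted p = 0.0397). The call was kept without ORX 3 or ORX 6 and lost without any 1 of the other 9 libraries (edgeR adjusted p up to 0.0960, without ORX 2). It was also lost with the fat marker score in the model (log2 0.59, edgeR adjusted p = 0.152).

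The X-zone markers, like both hydrolase genes, were higher in ORX. Their sum was 2911, 1523, 831, 2011, 1625 and 913 CPM in ORX 1 to 6, against 28.7 to 40.2 CPM in intact. ORX 1 was the highest ORX library and ORX 3 and 6 were the lowest for the X-zone sum, for Lipa (379 CPM in ORX 1, 218 and 242 CPM in ORX 3 and 6) and for Nceh1 (318 CPM in ORX 1, 157 and 169 CPM in ORX 3 and 6). The order of ORX 2 and 4 differed. ORX 4 was above ORX 2 for the X-zone sum but below it for Lipa (284 and 373 CPM) and Nceh1 (231 and 273 CPM). ORX 3 and 6 also had the highest ORX sums of fat markers (12916 and 7613 CPM) and medulla markers (17961 and 14819 CPM). ORX 1 had the lowest medulla sum, 7309 CPM. The part of the X-zone and the medulla in these levels was not tested, and that of the fat markers only by the fit with the fat score.

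By role, 9 genes of lipoprotein uptake were tested and none passed with edgeR, with a median log2 fold change of -0.19. The smallest p there was that of Lrp8, an apolipoprotein E receptor, at 6.99 ± 1.85 CPM in ORX and 12.1 ± 2.87 CPM in intact (log2 -0.79 ± 0.24, edgeR adjusted p = 0.0638). DESeq2 (adjusted p = 0.0173) and limma voom (adjusted p = 0.0227) called Lrp8 as lower in ORX, and limma voom also called Lipg, an endothelial lipase gene. Among 5 genes listed under lysosomal release only Lipa passed.

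None of 13 genes of sterol transfer between membranes passed (median log2 0.11). The smallest p was that of Tmem97, which encodes a sterol-binding protein of the endoplasmic reticulum and lysosome, at 16.9 ± 2.94 CPM in ORX and 12.8 ± 1.70 CPM in intact (log2 0.40 ± 0.17, edgeR adjusted p = 0.189).

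Of 10 tested genes of ester storage and hydrolysis, Nceh1 rose and 9 did not pass, and 8 of the 10 had a point estimate below 0. Their median was -0.66, the lowest of the role groups, with the droplet coat genes Plin1 at -0.67 ± 0.37, Plin4 at -0.84 ± 0.39 and Plin5 at -1.11 ± 0.42 but Plin3 at 0.30 ± 0.21, and the lipase genes Lipe at -0.56 ± 0.32 and Pnpla2 at -0.66 ± 0.28 (edgeR adjusted p 0.138 to 0.416). Limma voom called Cidec, and DESeq2 none besides Nceh1. Many of these genes are also abundant in fat, and the 8 fat markers, which share Plin1 and Cidec with this group, had a median log2 fold change of -0.48 with none past the threshold. With the fat marker score in the model Plin4 was at -0.19, Plin5 at -0.37 and Pnpla2 at -0.20, and Lipe turned to 0.02.

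None of 12 genes of efflux, apolipoproteins and the LXR receptors passed with edgeR (median log2 -0.30). Abca7, a transporter related to Abca1, had the smallest p, at 56.1 ± 4.67 CPM in ORX and 72.9 ± 8.40 CPM in intact (log2 -0.38 ± 0.12, edgeR adjusted p = 0.0731). Nr1h3, the gene of LXR-alpha, a sterol sensor that controls export genes, was at -0.60 ± 0.23 (edgeR adjusted p = 0.145). DESeq2 called Abca7 and Lpcat3, and limma voom Nr1h3 and Lpcat3.

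**Figure D4:**
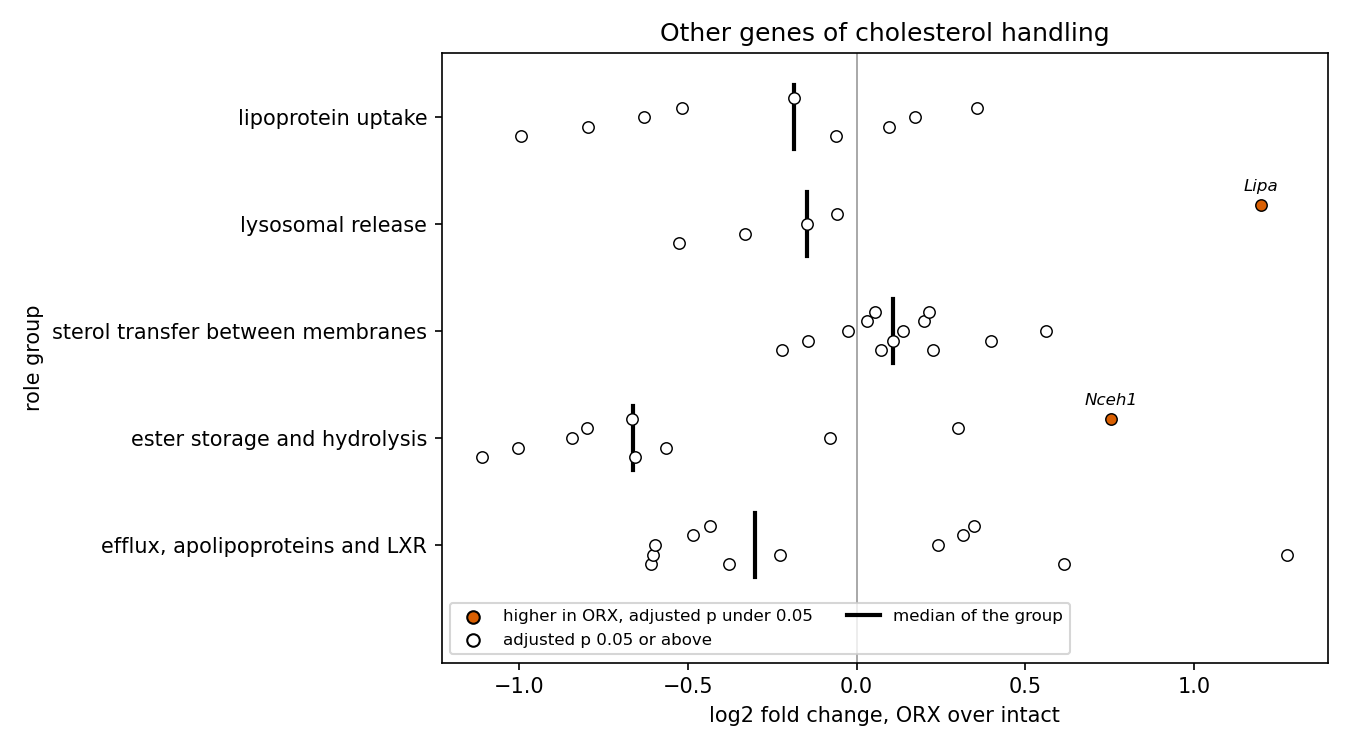
Each circle is the log2 fold change of ORX over intact for 1 of 49 tested genes of cholesterol handling outside the 10, by role, with the median of each role as a black bar. Lipa (1.20) and Nceh1 (0.75) are filled as past the threshold, and the median of ester storage and hydrolysis is -0.66.

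For each of the 10 genes the gene with the most similar pattern was looked up among 14129 other tested genes, by Pearson's r of log2 CPM deviations from the group means over the 11 libraries, which share their depth and scaling. As the highest of so many values each r is a description only. Ehd1 followed Scarb1 most closely (r = 0.98), Rps6ka2 Soat1 (0.95), Pex6 Plin2 (0.98), Arhgap32 Npc1 (0.97), Cox19 Npc2 (0.97) and Ssbp4 Stard3 (0.99). Taf2 followed Abca1 (0.97), Arhgef2 Abcg1 (0.95), Bmp1 Apoe (0.89) and 1810034E14Rik Apoc1 (0.92). The rank correlation was lowest for Abca1, at 0.74, and 0.85 to 0.98 for the other 9. Of these 10 genes Arhgap32 (log2 -1.18, edgeR adjusted p = 0.0301) and Rps6ka2 (log2 -1.20, edgeR adjusted p = 0.0169) were themselves past the threshold as lower in ORX.

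**Figure D5:**
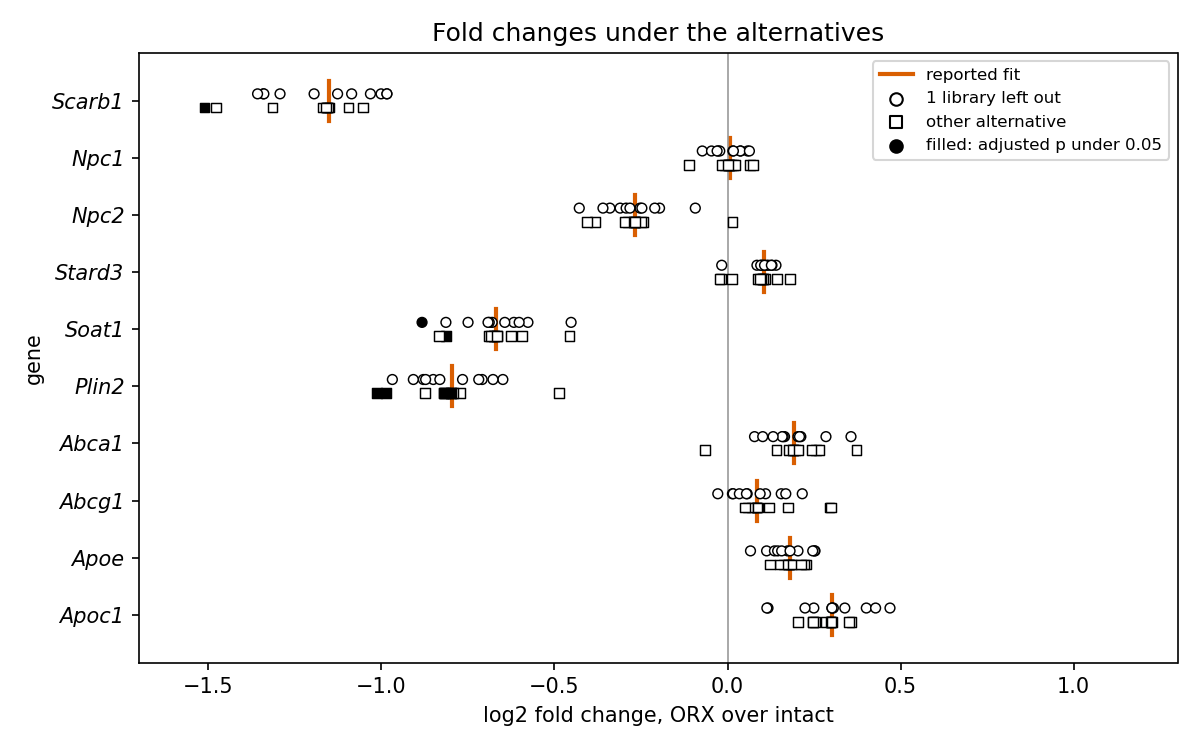
For each of the 10 genes the log2 fold change of ORX over intact in the reported fit (orange line), in 11 fits without 1 library (circles) and under 11 other alternatives (squares), filled where the adjusted p was under 0.05. Scarb1, Soat1 and Plin2 lie below 0 in every fit, and Npc1 lies on either side of 0, from -0.11 to 0.07.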

How the data were processed

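Adrenal RNA of 11 samples (300 ng each) was made into libraries with Illumina TruSeq kits, per the labels' protocols, which name a stranded and an unstranded guide. The authors deposited raw read counts per gene symbol, in 2 identical copies of which the first was used. Subread 1.5.1, bcl2fastq 1.8.4 and the build mm10 are named per the submitters' processing notes. For annotation, strand setting and reads with several matches, nothing is given in the sources used here.

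Groups came from sample titles. Labels do not say that each sample was its own mouse, so p-values measure the spread between samples, which may be partly technical. The closest pair within a group differed beyond sampling noise (chi-square per degree of freedom 26.8). Counts were filtered by filterByExpr (minimum count 10, total 15), normalized with TMM and compared as ORX over intact by edgeR's quasi-likelihood test (version 4.0.16, R 4.3.3) without covariates, with Benjamini-Hochberg adjustment over 14139 genes. Standard errors came from fold change and F statistic. Code was tested on simulated data. Alternatives used DESeq2 1.42.0, limma 3.58.1, other scaling, filters, covariates and sample sets. Positions and lengths are those of GENCODE M21 on GRCm38 (mm10), and promoters are from RefSeq, matched for 6 of the 10 genes. One marker, Adgre1, was counted under an older symbol.

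The 10 genes and all lists were chosen with earlier results of these data known. Named are all 10, pathway genes past the threshold or with the smallest p of their role, and the most similar gene of each. Nr1h3, Plin1, Plin3, Plin4, Plin5, Lipe, Pnpla2, Cidec, Lipg and Lpcat3 were added after their values were seen. The values of 1 tested pathway gene, counted in its role group, are not reported here.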

Additional observations from a re-analysis of the deposited data

Results flagged for a closer look

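Stard3 in ORX 6 stood far from the rest of its group, at 44.5 CPM against 26.6 to 30.2 CPM in the other ORX libraries. The gap was 0.797 of the group's range. It was the only one of 20 sets of values checked (10 genes in 2 groups) in which a single library stood apart this far, and chance flags about 1 in 20. The longest transcript of Stard3, 2170 bases, falls in a length bin (median 2260.5 bases) in which the median gene of ORX 6 was 0.31 above the other ORX libraries on the log2 scale. Stard3 was 0.62 above them.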

How the results depend on the processing

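Of 220 values of the 10 genes under the 22 alternatives, 198 kept their direction and their side of the threshold, 8 passed the threshold and 14 changed sign. The reported counts were 878 genes called in all, 0 of the 10 and 2 other pathway genes. DESeq2 gave 1630, 2 and 5, and limma voom 2056, 2 and 7. Without intact 3 and ORX 6 together 1218 genes were called, with 1 of the 10 (Soat1) and 4 pathway genes. The fat score as covariate left 1 pathway gene (Lipa), and the transcript length offset, added after the data were seen, gave 1342 genes and 1 of the 10 (Plin2). Leaving out 1 library gave 408 to 1280 genes, 0 to 1 of the 10 and 1 to 7 pathway genes. RLE scaling, library totals, the 2 other filters and the macrophage score kept all 3 counts within 1.5 times. Scarb1, Soat1 and Plin2 stayed negative and Apoe and Apoc1 positive under all 22. Npc1 turned to -0.0090 without a filter, -0.017 without intact 3 and ORX 6 and -0.11 with the fat score. Stard3 turned to -0.023 without intact 3 and ORX 6 and to -0.018 with the replicate block, and the fat score turned Npc2 to 0.014 and Abca1 to -0.066. Leaving out 1 library gave -0.073 to 0.063 for Npc1, -0.017 to 0.14 for Stard3 and -0.028 to 0.22 for Abcg1. The cause of these shifts was not tested. With the sample number as a replicate block 416 genes, 1 of the 10 (Plin2, log2 -0.99) and 2 pathway genes (Plin4 and Lipa) were called. ORX 6 is the only library of its number, so in that fit it did not inform the difference between the groups. Without ORX 6 and without the block Plin2 was at -0.97. Same-numbered libraries had correlations of -0.25 to 0.16 in their deviations, and only number 5 matched its own number best, so the numbers were not taken as pairs.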

Other observations

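The balance of Soat1, which makes cholesteryl ester, and Nceh1, which hydrolyses it, was looked at after the values were seen. The ratio of Soat1 to Nceh1 counts was 1.49, 1.39, 2.62, 1.73, 1.34 and 1.74 in ORX 1 to 6, and 5.10, 7.04, 1.87, 2.71 and 5.50 in intact 1 to 5. Of the intact libraries intact 3 lay inside the ORX range and intact 4 just above it, while intact 1, 2 and 5 were well above. No test was run on this ratio. Lipe, a lipase gene of the same role group as Nceh1, is not part of it and had a point estimate in the other direction. Its level was 545 ± 176 CPM in ORX and 806 ± 420 CPM in intact (log2 -0.56 ± 0.32, edgeR adjusted p = 0.311). With the fat marker score in the model Lipe was at 0.02. The ratio compares 2 genes whose transcripts differ in length (8371 bases for Soat1 and 4480 for Nceh1), so its size alone cannot be read. Soat1 falls in the longest length bin, which was shifted by -0.69 in ORX 6, -0.29 in ORX 5, -0.21 in intact 3 and 0.21 in ORX 4. Differences of the ratio between libraries can therefore hold a part of these shifts, which was not tested.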
